A study of Mus musculus with 22 samples.

Results

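The genes that encode the translation initiation factors (eIF) and elongation factors (eEF) were examined in mRNA bound to astrocyte ribosomes of the mouse optic nerve. Members were the protein-coding genes whose symbols begin with Eif1 to Eif6 or with Eef1 or Eef2, with the sex-linked pair Eif2s3x and Eif2s3y left out, which gave 65 of 29367 genes in the count table. A further 8 genes with such symbols were processed pseudogenes and were not members. The symbol rule also takes in enzymes named after the factors they modify, such as the eIF2α kinases, the eEF2 kinase and the methyltransferases of eEF1A and eEF2. Roles used below partly follow the symbols as well. Eef1e1 is counted with the eEF1 genes and Eif1ad with those of start codon selection by symbol, which does not show that they act there.

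The mice were aged 3 to 4 months, on a C57Bl/6 background and homozygous for the ribotag allele of Rpl22, a ribosomal protein gene, and they carried the GFAP-Cre transgene 73.12Mvs. Their genotype is labelled WT. Cre under the mouse GFAP promoter exchanges an exon of Rpl22 for a hemagglutinin (HA)-tagged copy, so that ribosomes of Cre-expressing cells can be pulled down with an antibody against HA. All libraries came from microbead-injected eyes, in which beads block the outflow of fluid and raise the intraocular pressure (IOP), and no uninjured mice were analysed here. Tissue of the optic nerve head (ONH), the unmyelinated start of the nerve at the eye, and of the myelinated optic nerve proper (ONP) was taken 7 or 30 days after injection. A library holds tissue from a pool of 4 mice (2 of each sex). There were 7 libraries per region at 30 days and 4 per region at 7 days, and ONH and ONP were dissected from the same mice, though which ONH library shares its mice with which ONP library is not given. The labelled cell type is the astrocyte.

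Initiation begins when eIF4E binds the cap of an mRNA and, through the scaffold eIF4G, brings in the helicase eIF4A and, through eIF3, the small ribosomal subunit with eIF1, eIF1A, eIF5 and the initiator tRNA carried by eIF2. Once the start codon is found, eIF5B joins the large subunit. The factor eIF2B reloads eIF2 with GTP, and 4 kinases that phosphorylate eIF2α slow that step under stress. In elongation eEF1A delivers aminoacyl-tRNAs, its partners eEF1B recharge it, and eEF2 moves the ribosome along. Astrocytes translate mRNAs in the cell body and also in their fine processes.

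Libraries held 16292489 to 33307092 counts. Of the 65 members, 62 passed the filter on low counts in every comparison. Eef1a2, Eef1akmt3 and Eif4ebp3 did not, with at most 0.452, 0.543 and 0.905 counts per 1000000 (CPM, scaled by the trimmed mean of M values, TMM) in any library. The 9 astrocyte markers summed to 13265 to 30386 CPM and none was absent. Markers of other cells were present as well: the 8 oligodendrocyte markers summed to 80303 to 105216 CPM in the ONP at 7 days, 25095 to 82164 CPM in the ONP at 30 days and 13269 to 40589 CPM in the ONH, and none of the 8 was at 0. The 6 microglia markers reached 1840 CPM, the 5 photoreceptor markers 5150 CPM in the ONH and 117 CPM in the ONP, and the 5 pigment cell markers 702 CPM in the ONH and 7.10 CPM in the ONP. A replicate stood apart in the ONH at 30 days: number 6 had the highest share of counts in members of all libraries, 1.13%.

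The share of all counts that fell in members was higher in the ONH than in the ONP. It was 0.924% to 1.13% (median 0.961%) in the ONH at 30 days and 0.879% to 1.03% (median 0.918%) at 7 days, against 0.789% to 0.833% (median 0.797%) and 0.769% to 0.812% (median 0.797%) in the ONP. By these shares, which are of raw counts and not TMM-scaled, the lowest ONH library lay above the highest ONP library at either time. At 7 days the TMM factors were 1.004 to 1.087 in the ONH and 0.9288 to 0.9703 in the ONP. Scaling therefore narrows the gap between the regions at 7 days. On TMM-scaled counts the median log2 fold change of ONH against ONP at 7 days was 0.10 over members and 0.07 over all genes. Without replicate 6 the ONH at 30 days had at most 0.995%.

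Levels among members differed by orders of magnitude. Per kilobase of exon, Eef1a1 was highest in every group, with a mean of 673 CPM per kb in the ONH at 30 days and 488 in the ONP at 30 days, and Eif1, which keeps the ribosome scanning until the start codon is met, was second with 417 and 311. Eif5a, whose product helps the ribosome past difficult peptide bonds, and Eef2 followed with 242 and 192 in the ONH at 30 days and 190 and 153 in the ONP. At the other end, Eef1a2, the eEF1A paralogue of neurons and muscle, stayed at or below 0.452 CPM in all 22 libraries, where 3 counts amount to 0.0901 to 0.184 CPM. The eIF2α kinase gene Eif2ak4 (GCN2, which senses uncharged tRNA) had a median of 3.02 CPM in the ONH and 4.35 CPM in the ONP at 30 days. Some values are uncertain because reads may be shared with near copies or other genes. Of the 31-base words of Eif3j2, 94.9% also occur in other genes, mostly in Eif3j1. The share was 66.4% for Eif4ebp3, 49.8% for Eef1a1, 47.6% for Eef1g and 38.35% for Eif3j1. It was 31.2% for Eif4a3, 31.1% for Eif4a1, 30.1% for Eef1akmt4 and 29.4% for Eif3h. For Eif3m it was 26.2%, for Eif1 23.0% and for Eef2 21.2%.

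**Figure D1:**
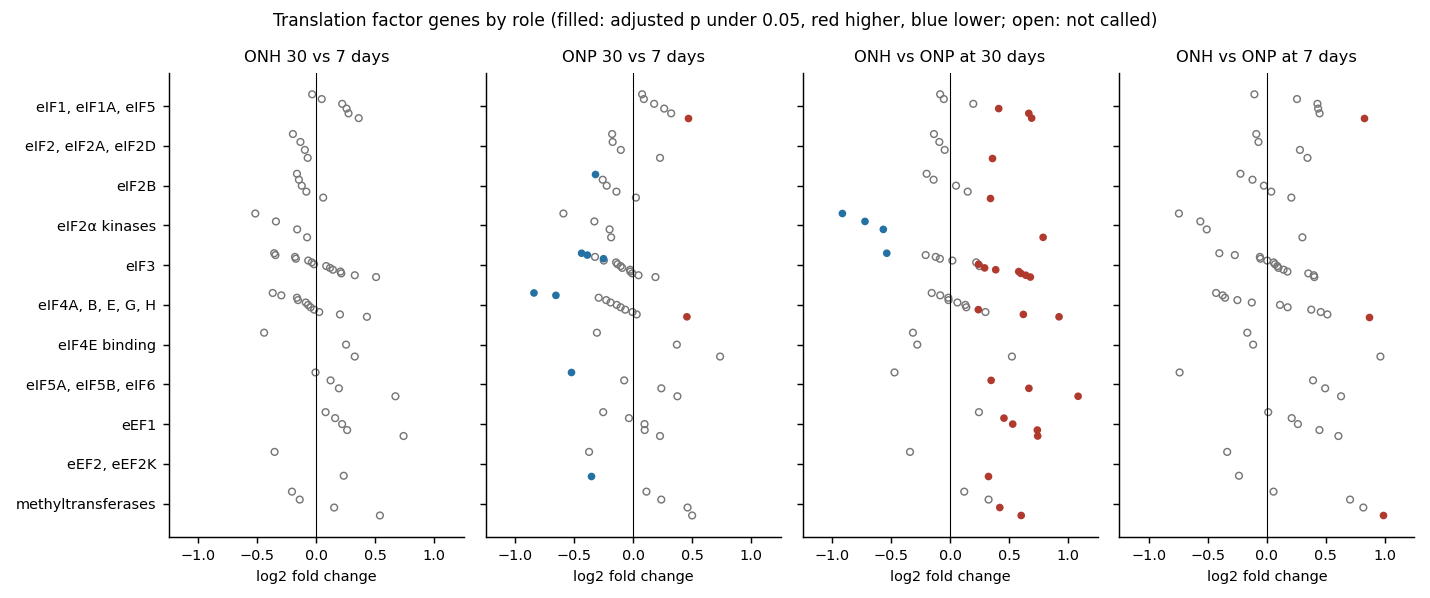
Log2 fold change (x axis) of each of the 62 tested members, in rows by role, for the 4 pairwise comparisons. Filled points passed an adjusted p of 0.05 in edgeR (red higher, blue lower) and open points did not: 0, 10, 30 and 3 points are filled from left to right.

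The comparison of 30 with 7 days in the ONP asks how astrocyte mRNA of the myelinated nerve moved between early and late elevated IOP. The eIF4G scaffold genes Eif4g1 and Eif4g3 fell, as did 3 genes of eIF3, while the cap-binding protein gene Eif4e rose. By edgeR's quasi-likelihood test with Benjamini-Hochberg adjustment over all genes, 8 members were lower at 30 days and 2 were higher, 10 of 62 or 16.1%, beside 17.0% of all 15491 genes tested. Lower calls made up 12.9% of members and 9.21% of all genes, and higher calls 3.23% and 7.82%. The median log2 fold change (log2FC) was -0.10 over members and -0.01 over all genes. The share of members called was thus near that of all genes. Groups did not overlap in 5 lower members, where 5.79% of all genes did not, and in 1 higher member, where 6.20% did not. DESeq2 called 14 members, 6 higher and 8 lower, beside 20.2% of the genes it tested.

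Eif4g1, the main eIF4G scaffold, had the smallest p. It stood at 108, 115, 106 and 120 CPM in the 4 ONP libraries at 7 days and between 53.2 and 75.5 CPM (median 66.8) at 30 days. Each 30 day library lay below each 7 day library, and the log2FC was -0.84 (SE 0.10, edgeR adjusted p = 0.000701), 1.79-fold lower. Its paralogue Eif4g3 went from 60.1, 51.3, 55.2 and 46.3 CPM to 27.0 to 44.5 CPM (median 34.0), with no overlap and a log2FC of -0.65 (SE 0.14, edgeR adjusted p = 0.00857). Both calls held in each of 21 alternative settings. The distant relative Eif4g2, which lacks the eIF4E binding site, was at 595 to 618 CPM at 7 days and 550 to 628 CPM at 30 days (log2FC -0.07, SE 0.07, edgeR adjusted p = 0.570).

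Eif4e had 163, 176, 196 and 167 CPM at 7 days and 198 to 308 CPM (median 226) at 30 days. The groups did not overlap, though by a margin of 2 CPM, and the log2FC was 0.46 (SE 0.13, edgeR adjusted p = 0.0349). The call held in 14 of 21 alternative settings and was lost in the fit over all 4 groups and without any of 6 single libraries (edgeR adjusted p up to 0.0833). Eif1a, an autosomal copy of the scanning factor gene Eif1ax, rose from 42.2, 45.2, 33.6 and 35.4 CPM to 42.9 to 64.0 CPM (median 58.7), with overlap (log2FC 0.47, SE 0.13, edgeR adjusted p = 0.0311). The helicase genes Eif4a1 and Eif4a2 and the helicase cofactors Eif4b and Eif4h did not pass the test, with a log2FC of -0.29 for Eif4a1 and -0.19 for Eif4b.

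Of the 14 genes of eIF3, the complex that joins mRNA scaffold and ribosome, 3 fell and 12 had a negative log2FC. Eif3a, the largest subunit, had 140, 140, 128 and 138 CPM at 7 days and 90.9 to 119 CPM (median 108) at 30 days, without overlap (log2FC -0.39, SE 0.09, edgeR adjusted p = 0.0124). Eif3d, a subunit that can itself bind the caps of some mRNAs, had 111, 91.4, 103 and 116 CPM and then 74.2 to 91.7 CPM (median 77.5), and only replicate 5 of the 30 day group reached the 7 day range (log2FC -0.44, SE 0.09, edgeR adjusted p = 0.00646). Eif3m changed least of the called members, from 84.8 to 93.0 CPM at 7 days to 72.9 to 79.7 CPM at 30 days (log2FC -0.25, SE 0.07, edgeR adjusted p = 0.0248).

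The other called members belonged to reloading, joining and translocation. Eif2b5, the catalytic subunit of eIF2B, had 112, 84.4, 107 and 104 CPM at 7 days and 75.4 to 90.2 CPM at 30 days (log2FC -0.32, SE 0.09, edgeR adjusted p = 0.0259). Eif5b had 51.3, 38.4, 34.5 and 29.5 CPM and then 20.6 to 32.6 CPM (log2FC -0.53, SE 0.16, edgeR adjusted p = 0.0373). Eef2 had 646, 619, 585 and 701 CPM and then 388 to 565 CPM, without overlap (log2FC -0.36, SE 0.11, edgeR adjusted p = 0.0439). Of 21 alternative settings the call of Eef2 held in 7 and that of Eif5b in 9. None of the 4 eIF2α kinase genes passed, and all 4 had a negative log2FC (median -0.26). Nor did any of the 5 tested eEF1 genes, with a log2FC from -0.25 to 0.23.

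**Figure D2:**
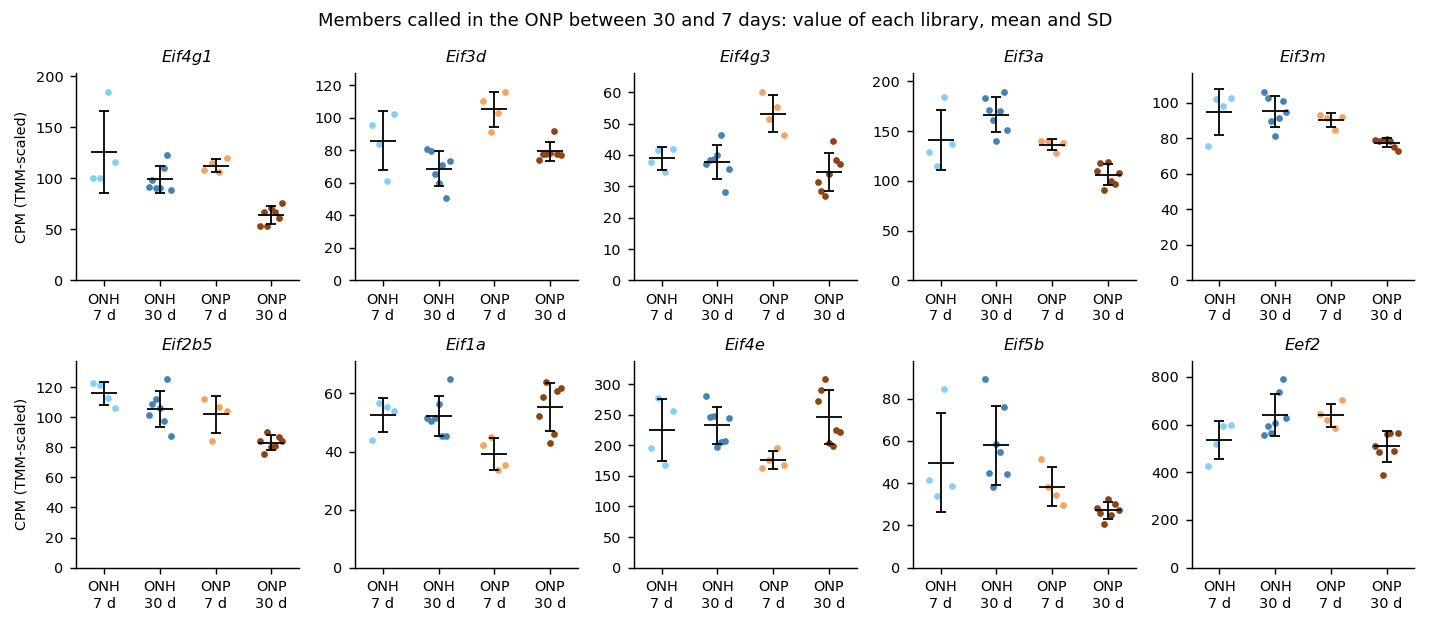
CPM (TMM-scaled, y axis, from 0) in each library of the 4 groups for the 10 members called in the ONP between 30 and 7 days, with the mean (bar) and SD (whiskers). Eif4g1, Eif4g3, Eif3a, Eif3m, Eef2 and Eif4e show ONP groups that do not overlap.

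Oligodendrocyte markers moved with this comparison: 7 of 8 were lower at 30 than at 7 days (median log2FC -0.85), as were 4 of 7 endothelial and mural markers (median -1.48) and 4 of 9 neuron and axon markers (median -0.93). Of the 9 astrocyte markers 1 was higher and 1 lower. The part of these cells in the members' changes was not tested. In bulk samples from a pull-down, fewer cells of a type, less RNA per cell and less of that RNA pulled down cannot be told apart. The 8 lower members had exonic lengths of 2590 to 11063 bases (median 6134.5) and the 2 higher ones of 4168 and 6008 bases, where the median of all tested members was 3935. With offsets for length and GC content the counts were 4 higher and 11 lower, beside 14.7% of all genes called. Scaling by library size alone turned the split to 8 higher and 3 lower, beside 18.7% of all genes called. It moved the median of all genes from -0.01 to 0.11, and Eif3a, Eif3m, Eif2b5, Eif5b and Eef2 were then not called. A fit over all 4 groups called Eif4g1, Eif4g3 and Eif1a, beside 7.10% of all genes. Without 7 day libraries 1, 2 or 6 the count was 5, 6 or 5, and Eif4g1, Eif4g3, Eif3d and Eif3a were called in each of these.

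For the ONH, the same 2 times were compared at the site where axons are first injured in glaucoma. No member passed the test, and neither did any other gene (0.00% of 15668). At an unadjusted p under 0.05 there were 6 members, 9.68%, beside 13.9% of all genes, and DESeq2 called 1 member (Eif4b), beside 2.49% of all genes it tested. The median log2FC was -0.02 over members and -0.02 over all genes.

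The member with the smallest p was Eif4b, which stimulates the eIF4A helicase. It had 86.7, 84.1, 103 and 99.9 CPM at 7 days and 109 to 139 CPM (median 130) at 30 days, and all 30 day values lay above all 7 day values (log2FC 0.43, SE 0.12, edgeR adjusted p = 0.189, DESeq2 adjusted p = 0.0205). Eef1akmt1, a methyltransferase of eEF1A, also did not overlap, with 16.5, 20.3, 22.9 and 19.9 CPM against 23.2 to 41.7 CPM (log2FC 0.54, SE 0.18, edgeR adjusted p = 0.243). These were the only 2 members whose groups did not overlap, both higher at 30 days, where 1.76% of all genes did so (0.530% lower). Next came Eif3f (log2FC 0.51, SE 0.20), Eif5a2, a low-level paralogue of Eif5a (0.67, SE 0.29), and the eEF1A exchange factor gene Eef1b2 (0.74, SE 0.32), with edgeR adjusted p of 0.294, 0.332 and 0.334.

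Values of single ONH libraries at 7 days were far apart. Eef1b2 had 38.6, 46.5, 103 and 32.9 CPM, and Eif4g1 had 101, 101, 185 and 116 CPM, so that the library numbered 5 in the table was high in both. Eif5b was at 84.7 CPM in that library and at 41.6, 33.9 and 38.8 CPM in the others. All 5 tested eEF1 genes had a positive log2FC, from 0.08 to 0.74, and none passed the test.

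The largest number of calls came from the comparison of ONH with ONP at 30 days, which asks how astrocytes of the head and of the nerve proper differ late in the injury. Of 62 members 30 were called (48.4%, beside 41.8% of 15133 genes), 26 higher in the ONH and 4 lower. Higher calls made up 41.9% of members and 21.8% of all genes, and lower calls 6.45% and 20.0%. The median log2FC was 0.23 over members and -0.01 over all genes. In 16 members each ONH library lay above each ONP library, which is 25.8% where 9.26% of all genes did so, and in 2 members each lay below (7.08% of all genes). DESeq2 called 32 members, 26 higher and 6 lower, beside 36.8% of the genes it tested.

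Genes of start codon selection and subunit joining were called in part. Of the 6 of start codon selection 3 were higher, and the other 3, Eif1a, Eif1ad and Eif1ax, had log2FC of -0.08, -0.05 and 0.20. Of the 4 of subunit joining and eIF5A 3 were higher, and Eif5a2 had a log2FC of -0.47 and was not called. The product of Eif5 makes eIF2 hydrolyse its GTP at the start codon. Eif5 had 477 to 738 CPM (median 542) in the ONH and 315 to 381 CPM (median 359) in the ONP. Its log2FC was 0.67 (SE 0.09, edgeR adjusted p = 5.52e-05). Eif5b had 38.0 to 89.2 CPM (median 54.7) and 20.6 to 32.6 CPM (median 27.3), the largest difference of a called member at 2.12-fold (log2FC 1.09, SE 0.17, edgeR adjusted p = 0.000152). Eif6, whose product keeps the large subunit from joining early, had 175 to 305 CPM and 117 to 143 CPM (log2FC 0.67, SE 0.11, edgeR adjusted p = 0.000160). Eif1b, a paralogue of Eif1, had 140 to 275 CPM and 89.3 to 136 CPM (log2FC 0.69, SE 0.13, edgeR adjusted p = 0.000767). None of these 4 genes overlapped between regions.

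Of the eIF3 genes 7 were higher, 1 lower and 6 not called. Eif3a had 140 to 189 CPM (median 170) in the ONH and 90.9 to 119 CPM (median 108) in the ONP, with the smallest p of all members (log2FC 0.64, SE 0.09, edgeR adjusted p = 4.57e-05). Eif3g, the RNA-binding subunit, had 186 to 259 CPM and 127 to 151 CPM (log2FC 0.58, SE 0.08, edgeR adjusted p = 5.8e-05). Eif3l was the subunit called lower, with 51.7 to 95.2 CPM against 93.5 to 113 CPM (log2FC -0.54, SE 0.13, edgeR adjusted p = 0.00317), and here a single ONH library, at 95.2 CPM, reached into the ONP range.

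In the eIF4 group 3 of 11 were called, all higher, and Eif4b differed least of them (log2FC 0.24). Eif4g1 had 88.3 to 123 CPM (median 91.7) against 53.2 to 75.5 CPM (median 66.8) (log2FC 0.62, SE 0.10, edgeR adjusted p = 0.000173). Eif4e3, an unusual cap-binding homologue of eIF4E, had 41.2 to 70.3 CPM against 23.2 to 35.1 CPM (log2FC 0.92, SE 0.14, edgeR adjusted p = 8.43e-05). Eif4e itself overlapped widely, with 197 to 280 CPM against 198 to 308 CPM (log2FC -0.08, SE 0.13, edgeR adjusted p = 0.624).

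The eIF2α kinases went both ways. Eif2ak3 (PERK, the sensor of the endoplasmic reticulum) had 9.88 to 13.5 CPM (median 11.7) in the ONH and 15.9 to 28.8 CPM (median 21.6) in the ONP (log2FC -0.91, SE 0.15, edgeR adjusted p = 0.000219). Eif2ak1 (HRI, the heme-regulated kinase) had 50.5 to 71.2 CPM against 85.3 to 99.5 CPM (log2FC -0.57, SE 0.09, edgeR adjusted p = 0.000173), and Eif2ak4 was also lower (log2FC -0.72, SE 0.25, edgeR adjusted p = 0.0290). Eif2ak2 (PKR, activated by double-stranded RNA) was higher, with 20.7 to 48.8 CPM against 14.2 to 23.7 CPM (log2FC 0.79, SE 0.17, edgeR adjusted p = 0.00174). These 3 lower kinases and Eif3l were the 4 members called lower.

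Of the 5 tested eEF1 genes 4 were higher in the ONH. Eef1d and Eef1g, both of the exchange complex of eEF1A, had 147 to 256 against 95.6 to 118 CPM and 167 to 254 against 122 to 149 CPM (log2FC 0.74, SE 0.11, and 0.53, SE 0.09, edgeR adjusted p = 0.000119 and 0.000275). Eef1a1 had 1460 to 2214 CPM (median 1635) against 1063 to 1372 CPM (median 1196) (log2FC 0.46, SE 0.10, edgeR adjusted p = 0.00134). Replicate 6 held the top ONH value of Eef1a1 and of Eef1g, and without it the number of called members was 26, with Eef2, Eif1, Eif2s2 and Eif3i lost.

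The remaining roles held fewer calls. Of the eIF2 genes 1 of 4 was higher (Eif2s2, which carries eIF2β, log2FC 0.36), and of the 5 eIF2B genes Eif2b5 alone (0.34). Of the 4 tested methyltransferase genes Eef1akmt2 (0.60) and Eef2kmt (0.42) were higher, and Eef2 was higher (0.33) while the gene of its kinase, Eef2k, had a log2FC of -0.34 and was not called. None of the 3 tested eIF4E-binding genes was called.

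**Figure D3:**
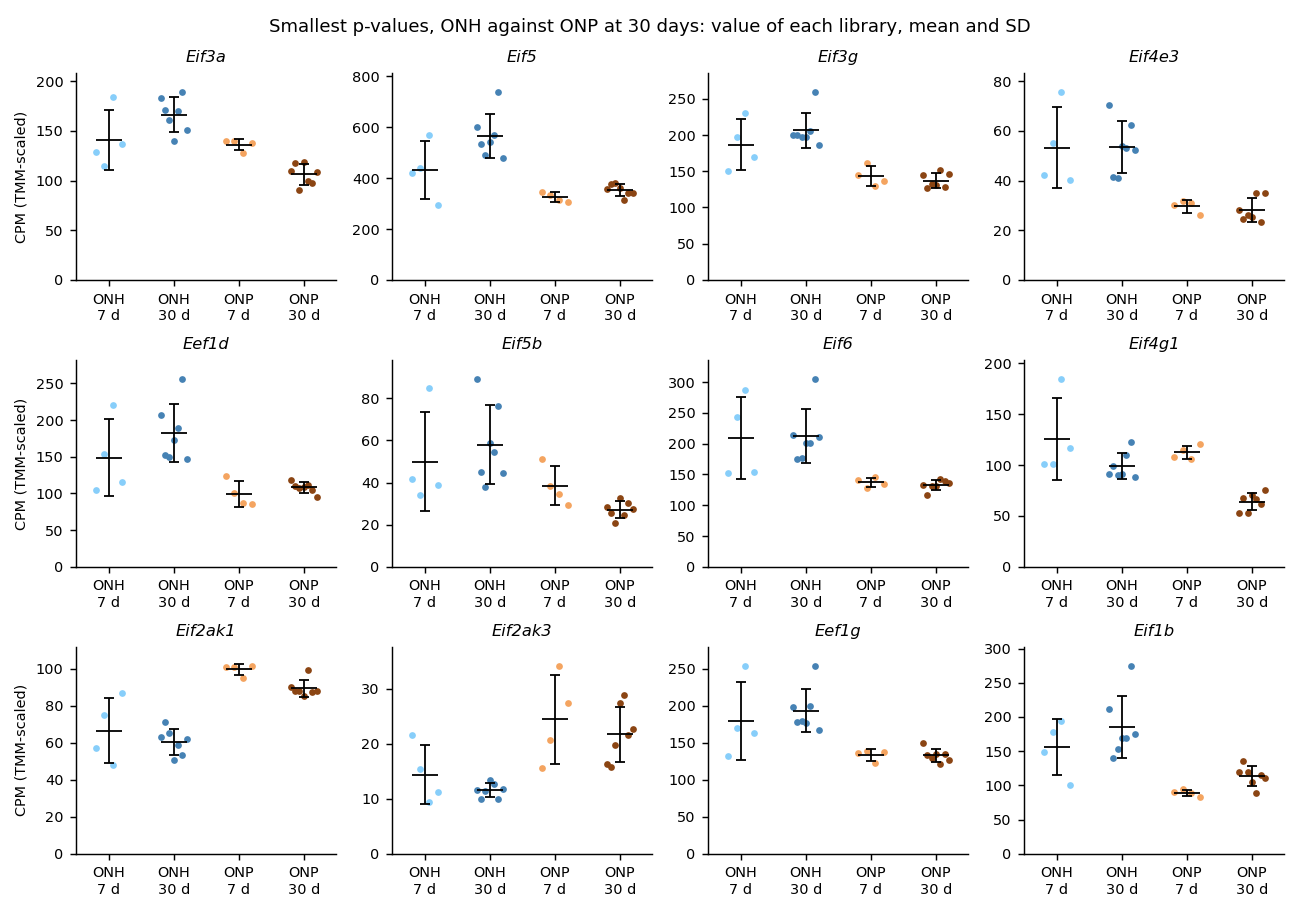
CPM (TMM-scaled, y axis, from 0) in each library of the 4 groups for the 12 members with the smallest p in ONH against ONP at 30 days, with the mean (bar) and SD (whiskers). All 12 have 30 day groups that do not overlap, with Eif2ak1 and Eif2ak3 lower in the ONH and the other 10 higher.

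Other cells differed between the regions at the same time: 6 of 8 oligodendrocyte markers were lower in the ONH (median log2FC -0.97). All 5 photoreceptor and all 5 pigment cell markers were higher (medians 5.35 and 5.86). Of 9 neuron and axon markers 4 were higher and 1 lower, and of the 9 astrocyte markers 1 was higher and 3 lower. The part of these cells in the members' differences was not tested. With length and GC offsets 33 members were called, and Eif1, Eif1b and Eif2ak4 were lost.

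At 7 days 3 members were called between the regions, all higher in the ONH (4.84%, beside 13.2% of 14752 genes for calls of either direction, 6.34% for higher and 6.81% for lower calls). Here 4 libraries stood against 4, where 30 days had 7 against 7, so a member not called may still differ. Eef1akmt2, a methyltransferase of eEF1A, had 36.3, 64.3, 58.7 and 37.1 CPM in the ONH and 28.6, 24.3, 25.8 and 22.1 CPM in the ONP (log2FC 0.98, SE 0.23, edgeR adjusted p = 0.0196). Eif1b had 149, 178, 194 and 101 CPM against 90.2, 94.4, 88.5 and 82.9 CPM (log2FC 0.83, SE 0.20, edgeR adjusted p = 0.0237). Eif4e3 had 42.1, 55.0, 75.7 and 40.4 CPM against 30.2, 31.6, 30.98 and 26.0 CPM (log2FC 0.86, SE 0.23, edgeR adjusted p = 0.0307). In all 3 genes each ONH library lay above each ONP library, and the spread among the ONH libraries was wider than among those of the ONP. Over all members 6 had each ONH library above each ONP library and 3 had each below, beside 9.90% and 11.8% of all genes. DESeq2 called 8 members, 6 higher and 2 lower, beside 19.0% of the genes it tested.

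These 3 calls rested on few libraries, since no member passed without library 3 of the ONH or without library 2, 5 or 6 of the ONP, and 8 passed without library 6 of the ONH. A fit over all 4 groups called 18, 13 higher and 5 lower, beside 22.6% of all genes. Next in order were Eif4ebp1, which holds eIF4E away from eIF4G (log2FC 0.96, SE 0.30, edgeR adjusted p = 0.0578), and Eif4e2, a cap-binding repressor (0.51, SE 0.17, edgeR adjusted p = 0.0701). All 8 oligodendrocyte markers were lower in the ONH at 7 days (median log2FC -1.86), while all 5 pigment cell markers (median 6.22), 4 of 5 photoreceptor markers (4.75) and 4 of 9 neuron and axon markers (1.58) were higher. Of the neuron and axon markers 1 was lower, and of the 9 astrocyte markers 2 were lower and none was higher. The part of these cells in the 3 calls was not tested.

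Whether the step from 7 to 30 days differed between the regions was tested as an interaction over all 4 groups. Of the 62 members 1 passed, Eif4b (1.61%, beside 0.543% of 16748 genes for calls of either direction, 0.394% for lower and 0.149% for higher calls). DESeq2 called 2, Eif4b and Eif3a, beside 2.28% of the genes it tested. Its change was 0.43 (SE 0.12) in the ONH and -0.19 (SE 0.09) in the ONP, a difference of -0.62 (SE 0.14, edgeR adjusted p = 0.0461, DESeq2 adjusted p = 0.00570). In the ONP its values were 121, 131, 103 and 128 CPM at 7 days and 98.8 to 120 CPM (median 109) at 30 days. The call was lost in 24 of 32 alternative settings, where the difference kept its sign, from -0.70 to -0.46 over all settings.

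Next in order of p were Eif3a (-0.60, SE 0.17, edgeR adjusted p = 0.106), Eef2 (-0.59, SE 0.18, edgeR adjusted p = 0.14) and Eef1a1 (-0.47, SE 0.16, edgeR adjusted p = 0.191), none of which passed. All 4 genes are on a list of 10 members known to carry a 5′ terminal oligopyrimidine tract (5′ TOP), a C followed by pyrimidines at the start of the mRNA through which the mTORC1 kinase sets translation. The list was written with earlier results of these data known, so the coincidence is a description. Of its 10 members 9 had a negative interaction and 1 was called. The median was -0.39, beside -0.09 for all 62 tested members and 0.01 for all genes. Of the 62 tested members 39 had a negative interaction, and 50.9% of all genes had a positive one. At 30 days 8 of the 10 were higher in the ONH (41.9% of tested members and 21.8% of all genes). At 7 days none of the 10 was called (4.84% of tested members and 13.2% of all genes). Marker medians in the interaction were -0.87 for oligodendrocytes, -0.47 for neurons and axons and -0.16 for astrocytes. They were positive for fibroblast and meningeal (0.94), pigment cell (0.69) and surface epithelium (1.67) markers, and no marker was called. The part of these cells in the interaction was not tested.

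**Figure D4:**
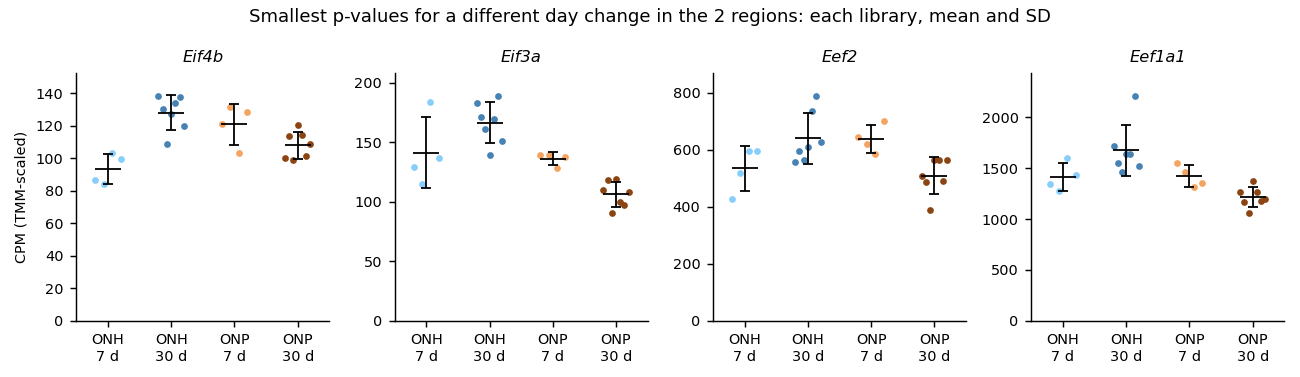
CPM (TMM-scaled, y axis, from 0) in each library for the 4 members with the smallest p for a different day change in the 2 regions, with the mean (bar) and SD (whiskers). The mean of Eif4b was 93.5 and 128 CPM at 7 and 30 days in the ONH and 121 and 108 CPM in the ONP, and only Eif4b passed the test.

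The annotated starts of the 5′ TOP members found in the promoter table of RefSeq (GRCm38.p6), and of Eif4g1 and Eif3d as called members outside that list, show what these windows hold. Each is 15 bases before and 15 from the start, 5′ to 3′ on the strand of the gene, and capitals mark the longest run of a C followed by at least 4 pyrimidines.
Eif4b (chr15:102073758-102073787, plus strand): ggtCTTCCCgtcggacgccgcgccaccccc
Eef1a1 (chr9:78481710-78481739, minus strand): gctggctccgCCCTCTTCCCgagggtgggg
Eif3f (chr7:108934400-108934429, plus strand): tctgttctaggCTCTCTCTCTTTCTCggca
Eif3a (chr19:60790679-60790708, minus strand): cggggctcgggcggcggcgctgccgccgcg
Eef2 (chr10:81176616-81176645, plus strand): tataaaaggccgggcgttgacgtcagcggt
Eef1b2 (chr1:63176816-63176845, plus strand): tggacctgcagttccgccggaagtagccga
Eif4g1 (chr16:20672712-20672741, plus strand): cgccagcgcagctccgCCCTCTgcgccggt
Eif3d (chr15:77970810-77970839, minus strand): gtggtagggccatttacgacagcgctggtc

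Of the 6 listed members that the promoter table holds, 3 have such a run in the window (Eif4b, Eef1a1 and Eif3f). The marked run of Eif4b lies wholly before the annotated start and so outside the annotated mRNA. A shorter run of Eif4b, the ccccc that ends its window, lies after the start. The marked runs of Eef1a1 and Eif3f begin before the start and run across it. Whether any of these runs is the 5′ TOP tract of its mRNA was not tested. Over all members 22 of 65 starts hold a run (33.8%), beside 36.4% of 32851 starts of all genes, so that a run at this loose definition is no mark of the members. An annotated start can lie some bases from the one used in these cells, and a window without a run says only that these letters are not in it. In GENCODE M21 Eif3a begins at base 60790658 of chromosome 19, so its whole window lies before that start. The 65 starts belong to 50 of the 65 members, and 15 members had no entry.

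Ratios of paralogues within a library hardly depend on how libraries are scaled. For 5 pairs, the mean log2 ratio of counts (plus 2) was compared between groups with two-sided exact permutation tests, adjusted over all 20 tests. Each ratio sets the gene of greater exonic length over its paralogue. Lengths were 5027 and 2377 bases for Eif5a2 and Eif5a, and 5784 and 2196 for Eif4ebp2 and Eif4ebp1. Those of Eif4g2 and Eif4g1 were 10166 and 7301 bases. The part of length in these ratios was not tested. Eif4g2 to Eif4g1 was 2.42 ± 0.10 (SD, n = 4) in the ONP at 7 days and 3.20 ± 0.15 (SD, n = 7) at 30 days, a difference of 0.78 (exact p = 0.00303, the smallest this design allows, adjusted p = 0.0202). In the ONH at 30 days it was 2.57 ± 0.18 (SD, n = 7), 0.64 below the ONP (exact p = 0.000583, again the smallest possible, adjusted p = 0.0117 by the same exact permutation tests). Thus the ratio of the scaffold without the eIF4E site to the main scaffold was highest in the ONP at 30 days, above every library of the other 3 groups. These tests reuse the counts of Eif4g1 described above and are not independent of them.

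Eif5a2 to Eif5a was lower in the ONH than in the ONP at 30 days, by 0.87 (exact p = 0.00233, adjusted p = 0.0202). Eif4ebp2 to Eif4ebp1, the pair of eIF4E-binding proteins, was also lower in the ONH at 30 days, by 0.92 (exact p = 0.00991, adjusted p = 0.0396). Eif1ax to Eif1a fell by 0.39 between 7 and 30 days in the ONP (exact p = 0.00909, adjusted p = 0.0396). Without some single libraries the adjusted exact p of these 3 rose above 0.05, up to 0.0629, 0.0886 and 0.111. With the ONH and ONP libraries of the same number taken as pairs, Eif4ebp2 to Eif4ebp1 was lower in 6 of 7 pairs (exact sign-flip p = 0.0625), while Eif4g2 to Eif4g1 and Eif5a2 to Eif5a were lower in 7 of 7 (exact p = 0.0156, the smallest 7 pairs allow). None of the 5 ratios then passed adjustment over the 20 tests. No ratio differed at an adjusted exact p under 0.05 between 30 and 7 days in the ONH or between regions at 7 days, where 4 against 4 libraries cannot go below an exact p of 0.0286.

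**Figure D5:**
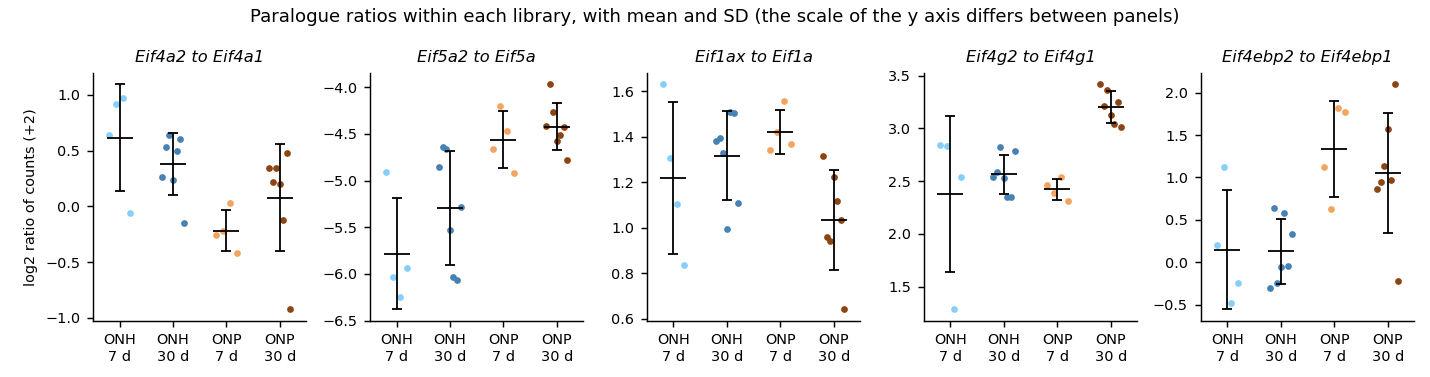
Log2 ratio of counts (plus 2) of 5 paralogue pairs (y axis, scale by panel) in each library of the 4 groups, with the mean (bar) and SD (whiskers). For Eif4g2 to Eif4g1 the 7 libraries of the ONP at 30 days lie between 3.02 and 3.42 and those of the other groups at or below 2.85.

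Over the 5 comparisons, 34 of the 62 tested members were called at least once and 28 in none. Among the latter were Eif2s1, which encodes eIF2α, Eif2a and Eif2d, and the eIF2B genes Eif2b1 to Eif2b4. Also among them were the eIF3 genes Eif3b, Eif3e, Eif3h, Eif3j1 and Eif3j2 and the helicase genes Eif4a1, Eif4a2 and Eif4a3. Eif4e2, Eif4g2 and Eif4h, and the eIF4E partners Eif4ebp1, Eif4ebp2 and Eif4enif1, were called in none as well. The others were Eif1ad, Eif1ax, Eif5a2, Eef1e1, Eef2k, Eef1akmt1 and Eef1akmt4.

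Genes that work with the factors were described from lists. Of 22 aminoacyl-tRNA synthetase and associated genes, which charge the tRNAs, 6 were lower in the ONP at 30 than at 7 days and none was higher (9.21% and 7.82% of all genes), and 21 had a negative log2FC (median -0.22). The smallest p belonged to Mars (methionine), from 69.7 to 44.6 CPM on average (log2FC -0.67, SE 0.13, edgeR adjusted p = 0.00482), and Vars (valine), from 55.3 to 35.9 CPM (-0.65, SE 0.12, edgeR adjusted p = 0.00484). In the ONH 19 of the 22 had a negative log2FC (median -0.27) and none passed. Between the regions at 30 days Sars was higher in the ONH (0.79, SE 0.10, edgeR adjusted p = 1.79e-05) and Iars lower (-1.05, SE 0.18, edgeR adjusted p = 0.000329), with 3 higher and 6 lower in all (21.8% and 20.0% of all genes).

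Of 14 termination, recycling and mRNA-end genes, 10 were higher and 1 lower in the ONH than in the ONP at 30 days, beside 21.8% and 20.0% of all genes. Pdcd4, an inhibitor of the eIF4A helicase, was higher in the ONH at 30 days (log2FC 1.11, SE 0.17, edgeR adjusted p = 0.000132) and at 7 days (1.47, SE 0.23, edgeR adjusted p = 0.00206). The poly(A)-binding protein gene Pabpc1 (0.85, SE 0.17, edgeR adjusted p = 0.00114) and Larp1, which binds 5′ TOP mRNAs (0.62, SE 0.13, edgeR adjusted p = 0.00126), were higher at 30 days. Larp1 also fell in the ONP between 7 and 30 days (-0.56, SE 0.14, edgeR adjusted p = 0.0163).

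Of 17 genes that signal to translation from mTORC1 and from stress, 5 were called in the ONP between 30 and 7 days, 2 higher and 3 lower, where 17.0% of all genes were called. Tsc1 and Tsc2, which together restrain mTORC1, fell (log2FC -1.02, SE 0.18, and -0.59, SE 0.13, edgeR adjusted p = 0.00415 and 0.0101), and Rheb, the activator that they act on, rose (0.60, SE 0.14, edgeR adjusted p = 0.0140). Between the regions 5 were higher and 3 lower in the ONH at 30 days, where 41.8% of all genes were called, and 4 were higher and 1 lower at 7 days, where 13.2% were. Ddit3 and Atf4, transcription factor genes downstream of eIF2α phosphorylation, were higher in the ONH than in the ONP at 30 days (1.08, SE 0.13, and 0.99, SE 0.20, edgeR adjusted p = 1.88e-05 and 0.000935) and at 7 days (1.30, SE 0.22, and 1.06, SE 0.23, edgeR adjusted p = 0.00381 and 0.0128). Among the lower genes were Ppp1r15b, which targets a phosphatase to eIF2α (-0.49, SE 0.11, edgeR adjusted p = 0.00193), at 30 days and Tsc1 (-1.29, SE 0.34, edgeR adjusted p = 0.0312) at 7 days. Of 9 genes for the hypusine of eIF5A and the diphthamide of eEF2, 3 were higher and 1 lower in the ONH at 30 days, a share near the 41.8% of all genes called. Among the higher was Dohh, the last enzyme of hypusine synthesis (0.63, SE 0.11, edgeR adjusted p = 0.000467). Of 10 mitochondrial translation factor genes 2 fell in the ONP (9.21% of all genes), Mtif2 and Gfm1 (-0.64, SE 0.13, and -0.62, SE 0.17, edgeR adjusted p = 0.00774 and 0.0253), and Tsfm was higher in the ONH at 30 days (0.75, SE 0.10, edgeR adjusted p = 4.58e-05).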

How the data were processed

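Poly(A) mRNA pulled down with HA-tagged ribosomes was sequenced in 22 libraries, which the authors prepared and sequenced at the same time. The authors aligned reads with STAR 2.6.1d (mm10), quantified them with Salmon 0.14.2 and deposited raw expected counts, rounded. Their log2 values, deposited as a further table, come from a variance stabilizing step in DESeq2 1.34.0 (R 4.1.0) and served here only as an alternative. Expected counts share reads between near copies of a gene by estimate, and each depends on transcript length. Groups followed the labels. Columns at 7 days matched a group but no single sample. The study's methods state that ONH and ONP came from the same mice but tie no replicate number to a pool.

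Counts were tested in R 4.3.3 with edgeR 4.0.16 (filterByExpr, TMM, quasi-likelihood test, Benjamini-Hochberg over all genes, adjusted p under 0.05, no fold limit). DESeq2 1.42.0 and limma 3.58.1 served as alternatives, beside other scalings and filters, length and GC offsets (GENCODE M21), a fit of all 4 groups, the replicate block and each library left out. CPM are TMM-scaled and SDs are over libraries. No 2 libraries of a group had the same counts. The smallest detectable amount was set at 3 counts, which covers counting error only. Scripts were tested on simulated data. Libraries of a group are separate pools of mice.

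The members and lists were chosen with earlier results of these data known. Values are given for members past the threshold (up to the 12 smallest p per comparison, and 5 where none passes), the highest member of a role, paralogue pairs, and up to 4 genes per pathway list. Samples before injection were not analysed here.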

Additional observations from a re-analysis of the deposited data

Results flagged for a closer look

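Of 148 groups of member values tested for a library far from the rest of its group, 18 were past Dixon's 95% limit. Chance gives about 1 in 20 for independent groups, but these share the same 22 libraries, so the count cannot be set against that rate. In 8 of the 18, replicate 6 of the ONH at 30 days was the highest of 7. It had 2214 CPM of Eef1a1 (next 1719), 41.7 CPM of Eef1akmt1 (next 30.5), 92.4 CPM of Eef1akmt2 (next 52.4), 168 CPM of Eef1b2 (next 95.3), 254 CPM of Eef1g (next 200), 1277 CPM of Eif1 (next 962), 259 CPM of Eif3g (next 205) and 305 CPM of Eif6 (next 214).

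In the ONP at 7 days, library 5 was the lowest of 4 for Eif2ak1 (95.2 CPM), Eif3a (128 CPM) and Eif3m (84.8 CPM), and at 30 days replicate 5 was the highest of 7 for Eif2ak1 (99.5 CPM) and Eif3d (91.7 CPM). Single values were also far from the others for Eif1ax in ONH replicate 4 at 30 days (112 CPM, lowest), Eif2s1 in ONP replicate 4 (50.0 CPM, lowest), Eif4a1 in ONH replicate 7 (182 CPM, highest), Eif4ebp1 in ONP replicate 7 (26.5 CPM, highest) and Eif5b in ONH library 5 at 7 days (84.7 CPM, highest).

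The change of Eif4b from 7 to 30 days differed between the regions by the interaction test, with a difference of -0.62 on the log2 scale (SE 0.14, edgeR adjusted p = 0.0461), lower in the ONP than in the ONH. The call held in 8 of 32 alternative settings, and without single libraries the adjusted p ranged from 0.0229 to 0.153.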

How the results depend on the processing

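Depth limits only the lowest members (3 counts are up to 0.184 CPM). The cause of each shift was not tested unless its construction names it. Fits over all 4 groups, which share a spread, called 1 member in the ONH over time, 3 in the ONP over time and 18 between regions at 7 days. Of all genes these fits called 1.74%, 7.10% and 22.6%. DESeq2 called 1 and 14 members over time in the ONH and ONP, 32 and 8 between regions at 30 and 7 days, and 2 (Eif4b and Eif3a) in the interaction. With no filter beyond 1 count, which tests more genes, 6 were called in the ONP over time (median -0.057) and 24 between regions at 30 days. Of all genes 7.75% and 22.1% were then called. Scaling by library size alone moved the median of all genes to 0.18 at 7 days and 0.16 in the interaction. Member medians were then 0.22 and 0.066, with a median of 0.016 in the ONP over time. It gave 8 calls at 7 days, beside 15.1% of all genes. The interaction had 0 calls under limma-voom, RLE, library size alone, without mitochondrially encoded genes, without the filter, with at least 10 counts in every library and on the authors' log2 values.

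Leaving out each library gave 5 to 12 calls in the ONP over time (medians -0.103 to -0.0294), 26 to 33 between regions at 30 days, 0 to 8 at 7 days, 0 in the ONH and 0 to 3 in the interaction (3 without 7 day ONH library 5, which added Eif3a and Eif4g1), whose median ran from -0.123 to 0.00385 (without 7 day ONP library 1). The ratios ranged from -0.98 to -0.75 (Eif5a2 to Eif5a), -1.13 to -0.75 (Eif4ebp2 to Eif4ebp1) and 0.22 to 0.34 (Eif1ax to Eif1a) between regions at 30 days, and from -0.44 to -0.32 for the last pair in the ONP over time.

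Whether equal numbers at 30 days mark the same pools is not stated. Deviations of same-numbered libraries correlated at 0.077 to 0.471, and own numbers correlated best in 3 of 7 pairs. With the number as a replicate block 32 members were called (27 higher, 5 lower, median 0.22), beside 44.4% of all genes, and 29 of these members also without it. The interaction with these blocks called 1 member, beside 0.961% of all genes. With the same pairs in an exact sign-flip test, chosen after seeing the data, the ratios keep their differences of -0.64 (Eif4g2 to Eif4g1), -0.87 (Eif5a2 to Eif5a) and -0.92 (Eif4ebp2 to Eif4ebp1), with adjusted exact p of 0.0781, 0.0781 and 0.125. No paired analysis was possible at 7 days because those columns match a group but no numbered sample, and none was made between days, whose libraries come from different mice.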

Other observations

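Longer members tended to lower fold changes in each pairwise comparison. Over the 62 tested members, Spearman's rho between exonic length and log2 fold change was -0.38 for 30 against 7 days in the ONP, beside -0.24 over all genes with a length. It was -0.28 (all genes -0.13) for the ONH over time, -0.26 (all genes -0.16) between regions at 30 days and -0.32 (all genes -0.23) at 7 days. These points share libraries and are genes, not replicates, so the values are descriptions. Members called higher in the ONH at 30 days had a median length of 2700 bases, those called lower 5848 bases and those not called 4997.5 bases. Length was not tested as a source of these differences, and its offsets kept 27 of the 30 calls.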
